A study of Mus musculus with 2 samples.

Results

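The cells described here are barcodes of mouse kidney single-cell libraries that carry Slc5a2 and Slc34a1, which mark the early proximal tubule (PT). They were chosen by their own unique molecular identifiers (UMIs, the counts of captured RNA molecules): at least 1000 UMIs, at most 50% of them from mitochondrial (mt-) genes, at least 2 UMIs of Slc5a2, at least 2 of Slc34a1, and under 5 of the late PT genes Slc7a13, Cyp2e1 and Inmt together. The rule found 583 members among 7077 barcodes that pass the first 2 limits, 344 of 3093 in the control library and 239 of 3984 in the JPI-289 library. Both libraries come from male C57BL/6 mice, 9 weeks old, that underwent bilateral renal ischemia-reperfusion surgery, and kidney tissue was taken 24 h later. The control mouse was given saline and the other mouse JPI-289, an inhibitor of poly(ADP-ribose) polymerase (PARP), at 100 mg/kg, in both cases into the peritoneal cavity just before blood flow was restored. Each condition is 1 library from 1 mouse, and no kidney without ischemia was analysed here, so the values set 2 kidneys side by side and allow no test of the treatment. A difference between the kidneys, the surgeries or the tissue preparations cannot be told apart from one between saline and JPI-289.

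The early PT follows the glomerulus and takes back most of the filtered glucose, phosphate, bicarbonate and amino acids. Slc5a2 encodes the sodium-glucose cotransporter SGLT2 of the luminal membrane, and Slc34a1 the sodium-phosphate cotransporter NaPi-IIa. These cells draw their energy from fat rather than glucose, make glucose themselves, and activate vitamin D. After ischemia, injured PT cells are known to lose such functions and to switch on genes that are silent in the resting tubule, of which Havcr1 (kidney injury molecule-1) is the best known.

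Slc5a2 lies on chromosome 7 at chr7:128265657-128272430, plus strand, and Slc34a1 at chr13:55398187-55415592, plus strand, on GRCm38. In the control library 726 barcodes within the first 2 limits held Slc5a2, 402 held at least 2 UMIs of it, and 376 of these also at least 2 UMIs of Slc34a1, before the limit on late PT genes. The same steps gave 628, 306 and 254 barcodes in the JPI-289 library. Members made up 11.1% of control barcodes (95% exact binomial interval 10.0 to 12.3) and 6.00% of JPI-289 barcodes (5.28 to 6.78). These intervals, like all others here, cover counting error only. A member share depends on which cells entered each library and on how much Slc5a2 and Slc34a1 RNA each cell held, and fewer such cells cannot be told apart from less of this RNA per cell. A further 22 control and 4 JPI-289 barcodes met the limits on Slc5a2, Slc34a1 and the late genes but had over 50% mt- UMIs. No member barcode sequence occurred in both libraries, and 14 barcodes within the first 2 limits did.

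The rule fixes the lower end of Slc5a2 and Slc34a1, so their values are a description. Control members held 2 to 26 UMIs of Slc5a2 with a median of 4, and JPI-289 members 2 to 17 with a median of 4. The highest number of Slc5a2 UMIs was thus larger in the control library. Control members held 2 to 172 UMIs of Slc34a1 with a median of 16, against 2 to 35 with a median of 5 in JPI-289 members. Exactly 2 UMIs of Slc34a1, the lowest number allowed, occurred in 11 control and 34 JPI-289 members. Just outside the limits stood 167 control and 91 JPI-289 barcodes with exactly 1 UMI of Slc5a2, against 100 and 61 members with exactly 2. Slc5a12 stood at 305 CPM (UMIs scaled to the same total in each set of members) in the control barcodes with 1 UMI of Slc5a2, 430 in those with 2 and 490 in those with 3 or more. In the JPI-289 library it stood at 3.99, 5.72 and 8.33 CPM. The low Slc5a12 of the JPI-289 library was thus found on both sides of the limit.

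**Figure D1:**
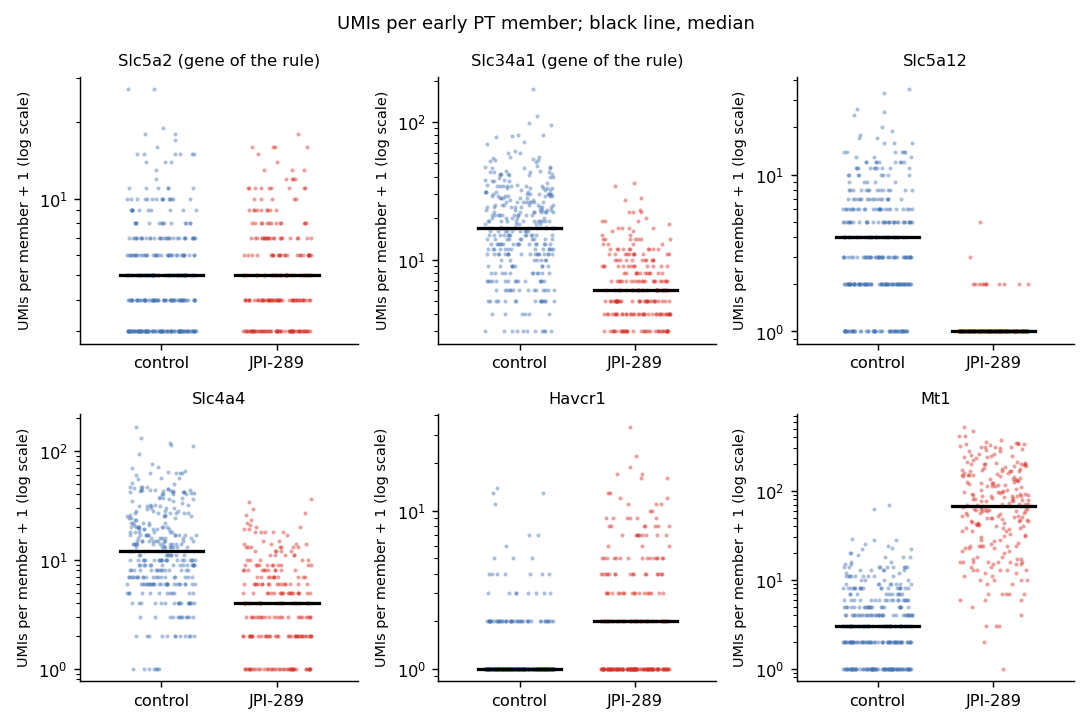
UMIs per member plus 1, on a log axis, of the rule genes Slc5a2 and Slc34a1 and of Slc5a12, Slc4a4, Havcr1 and Mt1. Each point is 1 of 344 control or 239 JPI-289 members and the black line is the median; the medians of Slc5a2 are 4 in both libraries, while those of Slc5a12 are 3 and 0 and those of Mt1 are 2 and 66.

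Neutrophils should hold neither rule gene. Barcodes with at least 3 genes and 10 UMIs of a neutrophil list thus show what free RNA can give at their depth. Of 189 such control barcodes, 1 had at least 2 UMIs of Slc5a2 and 8 had at least 2 of Slc34a1, and none was a member (0%, upper limit 1.93%). Of 588 in the JPI-289 library, 5 and 18 passed these limits and 3 were members (0.51%, upper limit 1.48%). Hence neutrophil-type barcodes met the rule at a far lower share than the libraries as a whole. The 188 control and 584 JPI-289 barcodes of this type used below had median depths of 2149 and 2241 UMIs, against 5970 and 8003 in members. They therefore cannot show how often free RNA meets the rule at the depth of members.

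The label of early PT held in the control library and only in part in the JPI-289 library. Slc5a12, a sodium-lactate cotransporter of the early PT that was given as the other marker of these cells, had 0 to 34 UMIs per control member with a median of 3. It had 0 to 4 UMIs per JPI-289 member, with 226 of 239 members at 0. Over the 11 early PT markers outside the rule, the summed level was 4293 CPM in control members, 2756 in late PT-type barcodes, which have at least 5 UMIs of Slc7a13, Cyp2e1 and Inmt together, and 879 in the other barcodes of that library. In the JPI-289 library it was 960, 686 and 238 CPM. Members thus held the most of these markers within each library, and the JPI-289 members held less than the late PT-type barcodes of the control library. They are called Slc5a2-positive members below, or members for short.

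Control members had 2948558 UMIs in all and JPI-289 members 2149961, with a median of 5970 UMIs per control member (1021 to 37633) and 8003 per JPI-289 member (1204 to 46068). The median number of genes was 2094 and 2246. The JPI-289 members were thus somewhat deeper, which by itself gives a higher share of barcodes with a UMI of any gene. The median share of mt- UMIs was 10.8% in control and 15.2% in JPI-289 members. There were 84 control and 42 JPI-289 members with under 2% mt- UMIs. In the control library these had 121471 CPM of Malat1, a nuclear noncoding RNA, against 17963 in the other members, and 1255 against 352 CPM of Slc5a12. In the JPI-289 library Malat1 stood at 17537 and 15960 CPM, so low mt- shares went with more Malat1 in the control library. Without the members under 2% mt- UMIs, 904 genes were at least 2-fold higher and 1916 lower in JPI-289 members, with a median log2 ratio of all genes of -0.11, against 778, 2411 and -0.23 over all members. Slc5a12 was at 4.17 and 8.38 CPM in these JPI-289 members, so it was low in both.

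Marker lists of 11 other cell types were low in members. Of the thick ascending limb list, 22.4 CPM in control and 76.7 CPM in JPI-289 members were mostly Umod (uromodulin), with 3 members in each library that held at least 5 UMIs of the list, and Kcnj1 and Cldn16 at 0 in JPI-289 members. The distal convoluted tubule list summed to 31.5 and 5.58 CPM with Slc12a3 on top and Pvalb at 0 in both libraries, and the principal cell list to 50.2 and 13.5 CPM with Fxyd4 on top and Hsd11b2 at 0 in JPI-289 members. The intercalated cell list gave 5.09 and 3.26 CPM (Atp6v1g3 on top, Slc4a1 at 0 in both), the endothelial list 42.7 and 16.7 CPM (Plvap and Emcn on top, none at 0), and the podocyte list 15.9 and 14.9 CPM (Synpo on top, none at 0). Each of these lists was lower than in the other barcodes of the same libraries, where the endothelial list was at 1787 and 1146 CPM. The gap was narrowest for the podocyte list, at 62.9 and 29.3 CPM in other barcodes.

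The stroma list gave 3.73 and 1.40 CPM, led by Pdgfrb, with Col1a1, Col3a1 and Dcn at 0 in JPI-289 members. The macrophage list gave 21.4 and 0.47 CPM, led by Lyz2, with Adgre1 at 0 in both libraries and C1qa, C1qb and C1qc also at 0 in JPI-289 members. Lymphocyte genes had 0 UMIs in control members and 1 in JPI-289 members, of Cd3d, with the other 4 listed genes at 0. The red blood cell list gave 58.0 and 60.0 CPM, led by Hbb-bs, with Alas2 at 0 in control members. The neutrophil list summed to 266 CPM in control members, of which G0s2 gave 761 of 784 UMIs and Csf3r and Cxcr2 gave none. In JPI-289 members it summed to 187 CPM and was led by Retnlg, whose 179 UMIs, of 401 for the list, came from 5 members. Free RNA, estimated from neutrophil and red blood cell genes, came to 1.78% of the UMIs of control members and 3.64% of those of JPI-289 members.

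For each gene, UMIs were summed over the members of a library and given as CPM, and the JPI-289 level was set against the control level as a log2 ratio with 0.5 UMIs added to each sum. Genes with at least 20 UMIs over both libraries count as measured. Of 9762 measured genes, 778 (7.97%) were at least 2-fold higher in JPI-289 members and 2411 (24.7%) at least 2-fold lower. Over all of them the median log2 ratio was -0.23 (-0.25 to -0.20), so the typical gene stood slightly lower in JPI-289 members. Relative to that median, 1217 genes were at least 2-fold higher and 1905 lower. In late PT-type barcodes, 92 control and 179 JPI-289, the median of all genes was 0.11, and in the 2657 control and 3566 JPI-289 other barcodes it was -0.23. Comparisons between these classes below, such as those of list medians, are not adjusted for these medians. Every list count below is read against the shares of 7.97% and 24.7%.

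**Figure D2:**
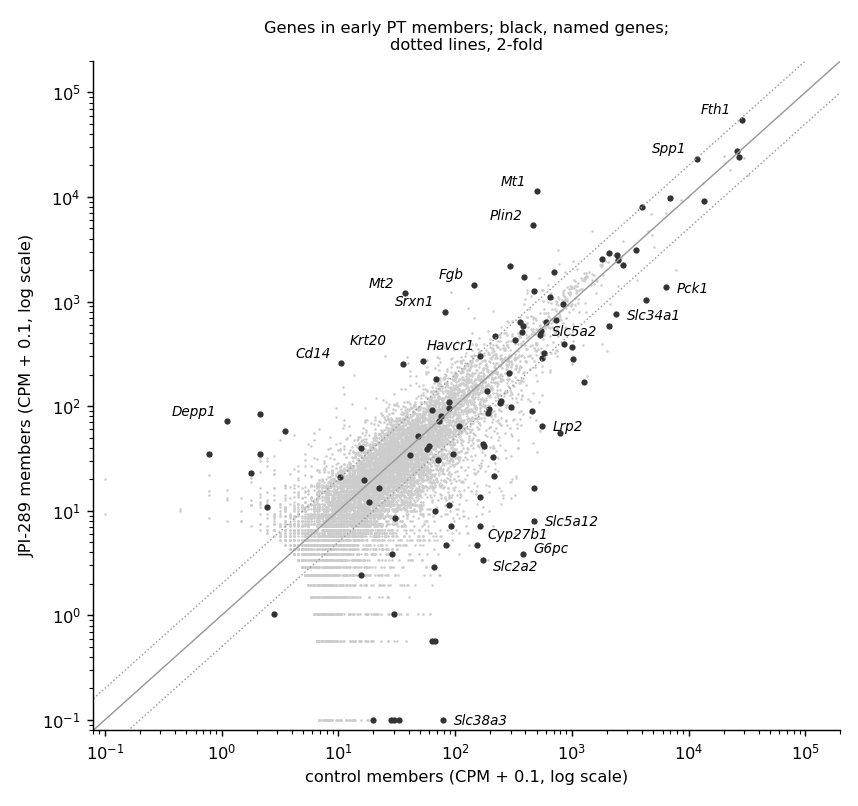
Level of each measured gene in control members (x axis) and JPI-289 members (y axis), both in CPM plus 0.1 on log axes, with the named genes in black, equal levels on the solid line and 2-fold differences on the dotted lines. Mt1 (507 and 11338 CPM), Plin2 (464 and 5361) and Fgb (146 and 1448) stand above the lines, G6pc (381 and 3.72) and Slc5a12 (479 and 7.91) stand below them, and the rule gene Slc5a2 (549 and 528) lies near the diagonal.

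Of the 13 early PT markers, 2 are genes of the rule. Of the other 11, all measured, 10 were at least 2-fold lower and none at least 2-fold higher in JPI-289 members, with a median log2 ratio of -1.90 (-5.62 to -1.12, from the order of the genes), or -2.94 with each member thinned to 1000 UMIs. Slc5a12 (chr2:110597298-110647779, plus strand) had 1413 UMIs in control and 17 in JPI-289 members, a log2 ratio of -5.88 (-6.71 to -5.24). Slc2a2 (chr3:28697903-28731359, plus strand), the glucose transporter GLUT2 through which glucose leaves the cell on the blood side, had 507 and 7 UMIs, a log2 ratio of -5.62 (-7.04 to -4.67). The rule gene Slc5a2, of which every member holds UMIs by the choice of members, had 1620 and 1135 UMIs, 549 and 528 CPM. Gatm, which makes the creatine precursor guanidinoacetate, had 968 and 30 UMIs and a log2 ratio of -4.53 (-5.13 to -4.03). Slc22a6, the organic anion transporter OAT1 of the basolateral membrane, had 975 and 44 UMIs and a log2 ratio of -4.00 (-4.48 to -3.58). Its neighbour in function Slc22a8 (OAT3) was the exception in the list, with 259 and 205 UMIs and a log2 ratio of 0.12 (-0.15 to 0.39).

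Slc4a4, the sodium-bicarbonate cotransporter that carries bicarbonate to the blood, had 0 to 166 UMIs per control member with a median of 11 and 0 to 35 per JPI-289 member with a median of 3. Its sums were 6163 and 1250 UMIs, a log2 ratio of -1.85 (-1.93 to -1.76). Unlike Slc5a12, it was still found in most JPI-289 members, with 40 of 239 at 0. Slc37a4 (-4.39), which carries glucose 6-phosphate into the endoplasmic reticulum, and Slc9a3 (-1.90), the luminal sodium-proton exchanger NHE3, were also lower. So were Slc7a7 (-1.69), Slc6a19 (-1.19) and Slc7a8 (-1.12), which move neutral or cationic amino acids, though by less.

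The same markers were also lower in the other barcodes of the JPI-289 library, with a median of -2.26 in late PT-type and -1.89 in other barcodes, both drawn from the same 2 kidneys. Of the 11 outside the rule, 4 were lower by more in members than in late PT-type barcodes (Gatm, Slc22a6, Slc2a2 and Slc37a4), 2 were lower by less (Slc4a4 and Slc7a8), and for 5 the interval of the difference spans 0. Of 376 control barcodes that met the limits on Slc5a2 and Slc34a1, 344 were members, and of 254 JPI-289 barcodes 239 were. The rest count as late PT-type and made up more of the 92 control than of the 179 JPI-289 barcodes of that class. How far this bears on the differences from late PT-type barcodes, here and below, was not tested. The log2 ratio of Gatm was -4.53 in members and -2.26 in late PT-type barcodes, a difference of -2.28 (-3.06 to -1.49), and that of Slc22a6 -4.00 and -2.08, a difference of -1.92 (-2.37 to -1.47). Slc4a4 stood at -1.85 and -2.40, a difference of 0.56 (0.38 to 0.73), and Slc7a8 at -1.12 and -2.46, a difference of 1.34 (0.46 to 2.23). For Slc5a12 the difference was -0.38 with an interval that spans 0 (-1.90 to 1.14). No more than 3 late PT markers could be described, since 3 are genes of the rule and the others had under 20 UMIs. Of them Aadat (-4.71) and Atp11a (-2.97) were at least 2-fold lower, and Slc6a18 had a log2 ratio of -0.56 (-0.96 to -0.17).

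**Figure D3:**
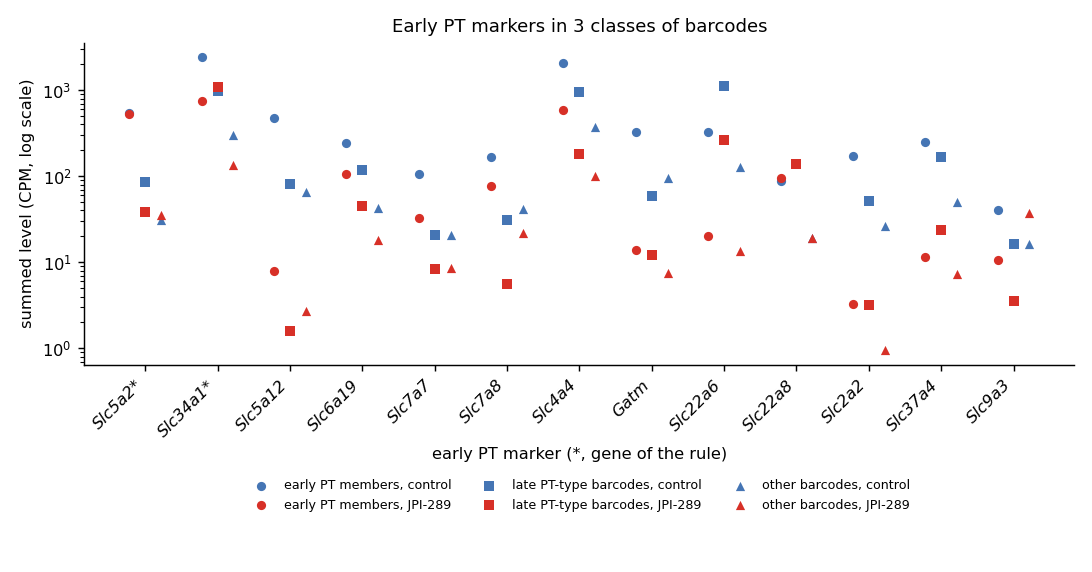
Summed level in CPM, on a log axis, of the 13 early PT markers in members (circles), late PT-type barcodes (squares) and other barcodes (triangles) of the control (blue) and JPI-289 (red) library. Slc5a12, Slc2a2, Gatm and Slc37a4 stand more than an order of magnitude lower in JPI-289 than in control members, while Slc22a8 (87.8 and 95.4 CPM) does not.

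The sodium, glucose and phosphate list holds the pumps and scaffolds that serve these transporters, and shares Slc2a2, Slc4a4 and Slc9a3 with the early PT markers. Of its 12 measured genes outside the rule, 8 were at least 2-fold lower and 1 higher, with a median of -1.75 (-2.91 to 0.02). Atp1b1, the beta subunit of the sodium pump, had 5342 and 854 UMIs and a log2 ratio of -2.19. Fxyd2, the gamma subunit of that pump, had 7268 and 5357 UMIs and a log2 ratio of 0.02 (-0.04 to 0.07), so these subunits of the pump differed from each other. Pdzk1, a scaffold that anchors luminal transporters, had 1495 and 79 UMIs (-3.78), and Pdzk1ip1, a small membrane protein that partners SGLT2, had 3768 and 366 (-2.91, -3.07 to -2.75). Slc34a3, the other renal sodium-phosphate cotransporter (NaPi-IIc), was the one gene of the list that was higher, with 10 and 37 UMIs and a log2 ratio of 2.29 (1.31 to 3.52). In late PT-type barcodes its log2 ratio was -0.72.

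Of 13 measured amino acid transport genes, 8 were at least 2-fold lower and none higher, with a median of -1.19 (-2.72 to -0.46). Slc38a3, the glutamine transporter SNAT3, had 231 UMIs in 124 control members and 0 in JPI-289 members, at least 56.1-fold lower when 3 UMIs are put in place of 0 over the group. It was 117 and 1 UMIs in late PT-type barcodes. Slc3a1, the heavy chain of the cystine transporter, had 500 and 79 UMIs (-2.20), while its light chain Slc7a9 had 206 and 109 (-0.46, -0.81 to -0.12). Slc3a2, the heavy chain shared by many exchangers, was the highest of the list with 480 and 655 UMIs and a log2 ratio of 0.90 (0.73 to 1.08). Its level was 163 CPM in control and 305 CPM in JPI-289 members.

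Of 17 measured genes of organic ion and drug transport, which take up and secrete drugs, urate and dicarboxylates, 10 were at least 2-fold lower and 1 higher, with a median of -1.20 (-3.82 to -0.47). The dicarboxylate carriers Slc13a2 (197 and 1 UMIs, -6.59) and Slc13a3 (563 and 7 UMIs, -5.78) and the sulfate carrier Slc13a1 (2328 and 120 UMIs, -3.82) were among the lowest. Slc22a2, an organic cation transporter, had 195 and 9 UMIs (-3.91). Exporters were mixed. Abcc2 had 1644 and 274 UMIs (-2.13), and the urate exporter Abcg2 had 1566 and 1031 UMIs, 531 and 480 CPM, with a log2 ratio of -0.15 (-0.26 to -0.03) that turned to 0.08 relative to the median of all genes. In late PT-type barcodes Abcg2 stood at -0.94, a difference of 0.79 (0.61 to 0.97) from members.

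Protein uptake by the PT runs through the giant receptors megalin (Lrp2) and cubilin (Cubn). Lrp2 had 1648 UMIs in control and 139 in JPI-289 members, a log2 ratio of -3.11 (-3.37 to -2.86), and Cubn 485 and 15 UMIs, a log2 ratio of -4.51 (-5.41 to -3.82). The endocytic adaptor Dab2, which binds the tail of megalin, had 1060 and 1386 UMIs and a log2 ratio of 0.84 (0.73 to 0.96), and Amn, the partner of cubilin, 506 and 260 (-0.50, -0.73 to -0.29). Lrpap1, the chaperone of megalin, had 526 and 164 UMIs (-1.22, -1.49 to -0.97). Dab2 thus leaned the other way from both receptors, while Amn and Lrpap1 were lower. Of 8 genes of endocytosis, 4 were at least 2-fold lower and none higher, with a median of -0.86 (-4.51 to 0.84). Cubn was lower by more in members than in late PT-type barcodes, a difference of -1.90 (-2.79 to -1.01). Of 8 measured enzymes of the brush border, 5 were at least 2-fold lower and none higher, with a median of -1.48 (-4.45 to -0.27). The peptidase Anpep had 195 and 6 UMIs (-4.45) and alkaline phosphatase Alpl 1340 and 191 (-2.35), while the dipeptidase Dpep1 had 121 and 73 (-0.27, -0.71 to 0.16).

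All 10 genes of gluconeogenesis and fructose use were measured, and 8 were at least 2-fold lower and none higher, with a median of -2.14 (-4.39 to -0.73). Pck1, the cytosolic enzyme that commits carbon to glucose, had 19013 and 2940 UMIs, 6448 and 1367 CPM, a log2 ratio of -2.24 (-2.29 to -2.18). G6pc (chr11:101367561-101377903, plus strand), which releases free glucose in the last step, had 1123 UMIs in 222 control members and 8 UMIs in 3 JPI-289 members, a log2 ratio of -6.59 (-7.89 to -5.69). It acts in the same step as Slc37a4 (734 and 25 UMIs), so both genes of glucose release had the lowest values of the list. Khk, which phosphorylates fructose, had 1453 and 159 UMIs (-2.73), and Fbp1 2980 and 545 (-1.99). Pck2, the mitochondrial form of Pck1, had 23 and 11 UMIs and an interval that spans 0 (-1.79 to 0.49).

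The list as a whole had a median of -0.92 in late PT-type barcodes, and its genes did not all lean the same way. Khk stood at -2.73 in members and -0.56 in late PT-type barcodes, a difference of -2.17 (-2.45 to -1.89), and Fbp1 differed by -1.59 (-1.76 to -1.42) in that direction. Pck1 went the other way, with -2.24 in members and -3.60 in late PT-type barcodes, a difference of 1.36 (1.25 to 1.47).

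Of 14 measured genes of amino acid metabolism, 12 were at least 2-fold lower and none higher, with a median of -2.40 (-4.10 to -1.08) against -1.25 in late PT-type barcodes. Gldc, which cleaves glycine, had 1397 and 35 UMIs (-4.84, -5.39 to -4.38). The interval of its difference from late PT-type barcodes spans 0 (-1.28 to 0.15). Ass1, of the arginine pathway, had 2992 and 605 UMIs (-1.85) and stood at 0.19 in late PT-type barcodes. Ddc, which forms dopamine, was the highest of the list with 216 and 154 UMIs (-0.03, -0.34 to 0.27).

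More fat oxidation genes were lower than higher. Of 21 genes, 9 were at least 2-fold lower and 1 higher, with a median of -0.85 (-1.12 to 0.33), which was -0.21 after thinning to 1000 UMIs per member. Medium-chain Acadm had 891 and 211 UMIs (-1.62). Acaa1b, a peroxisomal thiolase, was the highest with 1392 and 2743 UMIs and a log2 ratio of 1.43 (1.34 to 1.53), against -0.09 in late PT-type barcodes, a difference of 1.53 (1.41 to 1.65). The peroxisomal enzyme Ehhadh had 1197 and 1300 UMIs (0.57), and Cpt1a, the gate of fat into mitochondria, 517 and 499 (0.40, 0.22 to 0.58). Of 13 measured glycolysis genes, 4 were at least 2-fold lower and 1 higher, with a median of -0.26 (-1.22 to 0.08). After thinning to 1000 UMIs per member the glycolysis median was 0.20. Gapdh had 10541 and 6686 UMIs (-0.20, and 0.03 relative to the median of all genes), and Pkm, the muscle and embryonic pyruvate kinase, was the highest with 46 and 86 (1.35, 0.83 to 1.91).

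Genes of the respiratory chain differed little. The 13 protein genes of the mitochondrial genome had a median of 0.06 with none past 2-fold, although mt-Nd1 (39940 and 19865 UMIs, -0.55) and mt-Nd2 (20358 and 21015 UMIs, 0.50) lay apart. In late PT-type barcodes their median was -0.97, and these barcodes had a median of 9.68% (control) and 3.52% (JPI-289) mt- UMIs, with 12 of 92 and 73 of 179 barcodes under 2%. The 75 nuclear genes of the chain had a median of -0.33 (-0.43 to -0.25) with 5 at least 2-fold lower and none higher. Among them Cox4i1 (5402 and 5543 UMIs, 0.49) and Atp5g1 (2983 and 794 UMIs, -1.45) stood at the ends. All mt- genes share the limit of 50% mt- UMIs in the rule, so their level is not free of it.

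Of 12 transcription factors of the PT, 9 were at least 2-fold lower and none higher, with a median of -1.90 (-2.70 to -0.78). Hnf4a, the main regulator of PT identity, had 508 and 94 UMIs, 172 and 43.7 CPM, with a log2 ratio of -1.97 (-2.31 to -1.66). Hnf4g had 39 and 2 UMIs (-3.53, -6.93 to -1.88). The bile acid receptor Nr1h4 had 629 and 70 UMIs (-2.70) and the mitochondrial regulator Esrra 198 and 21 (-2.75). For Hnf4a the log2 ratio in late PT-type barcodes was -1.60, and the difference spans 0 (-0.79 to 0.06). Pax8, which is made along the whole tubule, had 260 and 238 UMIs and a log2 ratio of 0.33 (0.07 to 0.59), but -0.11 when each member was given equal weight.

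Vitamin D is activated in the PT by Cyp27b1 (chr10:127048250-127053006, plus strand), which had 453 UMIs in 153 control members and 10 UMIs in 7 JPI-289 members, a log2 ratio of -4.98 (-6.12 to -4.15). Cyp24a1, which breaks vitamin D down, was also lower, with 480 and 29 UMIs (-3.57, -4.19 to -3.05). The enzymes of synthesis and breakdown thus leaned the same way. Kl (klotho, the partner receptor of the phosphate hormone FGF23) had 287 and 17 UMIs (-3.58, -4.42 to -2.92), lower by more than in late PT-type barcodes by -1.79 (-2.60 to -0.98). The vitamin D receptor Vdr had 294 and 69 (-1.63). The remaining gene of the 5, Fgfr1, had 66 and 35 UMIs and an interval that spans 0 (-1.09 to 0.15).

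**Figure D4:**
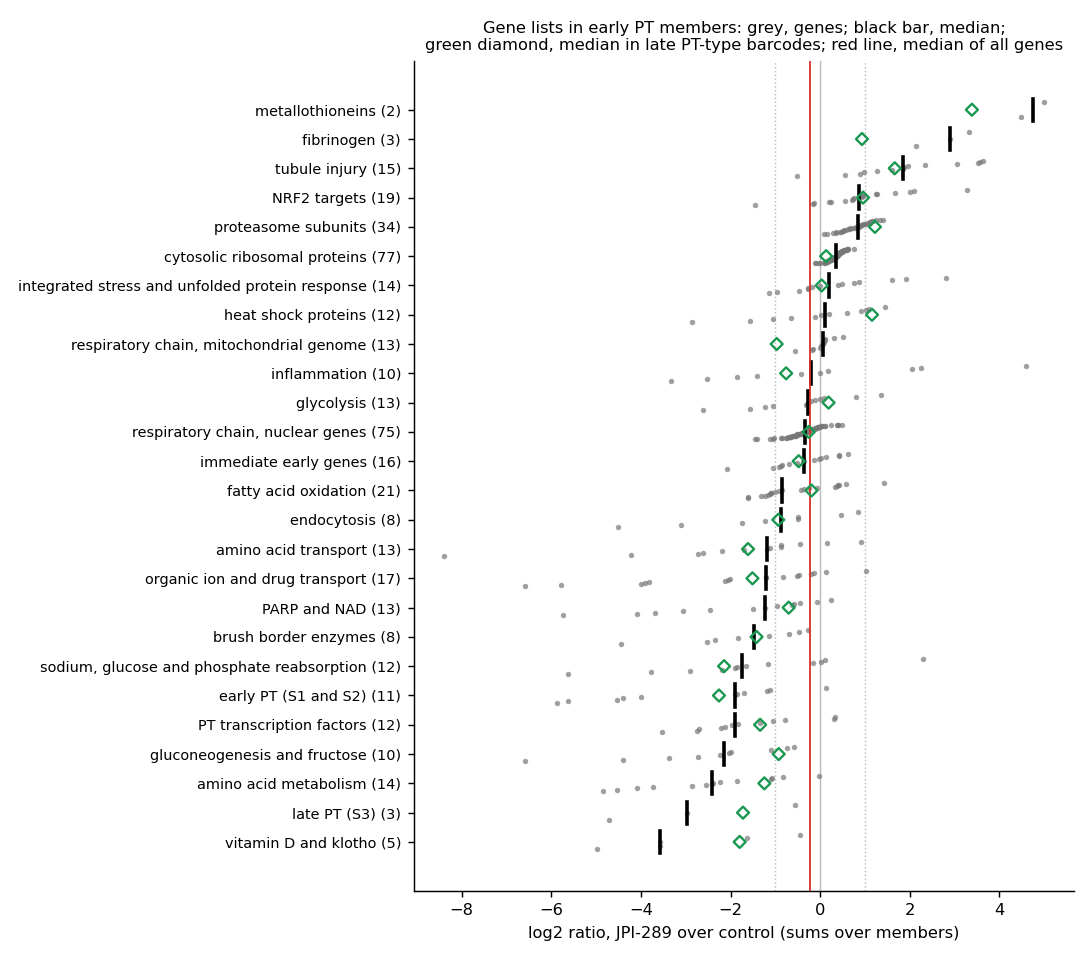
Log2 ratio of JPI-289 over control for the measured genes of each list other than those of other cell types in members (grey points), with the list median (black bar), the median of the list in late PT-type barcodes (green diamond) and the median of all genes in members (red line, -0.23); the number of genes is in brackets and dotted lines mark 2-fold. Metallothioneins (4.74), fibrinogen (2.89) and tubule injury genes (1.84) have the highest medians of the lists shown, and the vitamin D and klotho list (-3.57) the lowest.

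Injury genes went the opposite way. Of 15 measured, 11 were at least 2-fold higher in JPI-289 members and none lower, with a median of 1.84 (0.98 to 3.04), against 1.66 in late PT-type and 0.21 in other barcodes. Havcr1 (chr11:46735080-46779578, plus strand) had 0 to 13 UMIs per control member, with 275 of 344 at 0, and 0 to 33 per JPI-289 member, with 103 of 239 at 0. Its sums were 157 and 584 UMIs, 53.2 and 272 CPM, a log2 ratio of 2.35 (2.09 to 2.61). Krt20, a keratin, had 74 and 645 UMIs (3.57, 3.23 to 3.95), Krt8 413 and 1077 (1.84), and Vim (vimentin), a filament of mesenchymal cells, 28 and 171 (3.04, 2.48 to 3.70). In late PT-type barcodes Krt20 was higher by more, a difference of -1.38 (-1.88 to -0.88), and Vim stood at -1.12. Those barcodes held 327 CPM of the stroma list in the control and 0.79 CPM in the JPI-289 library.

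Plin2, which coats lipid droplets, had 1369 and 11526 UMIs, 464 and 5361 CPM, a log2 ratio of 3.53 (3.45 to 3.61). The cell cycle inhibitor Cdkn1a had 167 and 437 UMIs (1.84) and Sox9, a factor of tubule repair, 68 and 183 (1.88, 1.47 to 2.31), against 0.21 in late PT-type barcodes. Spp1 (osteopontin) was abundant in both libraries with 34976 and 50143 UMIs, 11862 and 23323 CPM, a log2 ratio of 0.98 (0.96 to 1.00). It stood at -1.36 in late PT-type barcodes, a difference of 2.33 (2.28 to 2.39). Lcn2 (NGAL) had 187 and 199 UMIs (0.55, 0.25 to 0.84), and 1.79 when members needed only 1 UMI of each rule gene. Its log2 ratio was -0.64 without members that held at least 5 UMIs of another cell type, and -1.77 with free RNA subtracted. The direction of Lcn2 was thus not the same under these alternatives. Vcam1, a marker of PT cells that fail to recover, had 8 and 2 UMIs and was not measured. The lowest gene of the list was Clu, with 176 and 90 UMIs (-0.51, -0.89 to -0.14), and -2.42 when members needed only 1 UMI of each rule gene.

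The 3 fibrinogen chains, plasma proteins that injured tubules are known to make, were all at least 2-fold higher. Fga had 1151 and 3693 UMIs (2.14, 2.04 to 2.23), Fgb 430 and 3113 (3.31, 3.17 to 3.46) and Fgg 868 and 4687 (2.89, 2.78 to 2.99). Each was higher by more in members than in late PT-type barcodes, by 1.20 (1.03 to 1.38), 1.87 (1.58 to 2.16) and 2.25 (2.07 to 2.42). In other barcodes Fgb stood at 2.95 and Fgg at 1.94, between the members and late PT-type barcodes.

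The metallothioneins Mt1 and Mt2 bind zinc and other metals and had the highest median of any list, 4.74. Mt1 (chr8:94179082-94180327, plus strand) had 0 to 68 UMIs per control member with a median of 2, and 0 to 526 per JPI-289 member with a median of 66. A single JPI-289 member had none. Its sums were 1494 and 24377 UMIs, 507 and 11338 CPM, a log2 ratio of 4.48 (4.41 to 4.56). Mt2 (chr8:94172664-94173568, plus strand) had 110 and 2584 UMIs, 32.1-fold higher (log2 interval 4.73 to 5.30). In late PT-type barcodes the log2 ratios were 3.27 and 3.50, and the differences from members were 1.22 (1.10 to 1.33) and 1.50 (1.10 to 1.90). In other barcodes the median of these genes was 1.45.

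Since Mt1 and Mt2 were both higher and lie side by side, the bases before their starts are shown. Capitals mark matches, on either strand, to the letters TGCNCNC, searched here for the metal response element with any base at N. They are the plus strand of GRCm38.p6 from RefSeq, chr8:94178839-94179081 for Mt1 and chr8:94172368-94172617 for Mt2. The Mt2 window ends at the RefSeq start, and the 46 bases between it and the GENCODE start given above are not shown and were not searched.

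Mt1: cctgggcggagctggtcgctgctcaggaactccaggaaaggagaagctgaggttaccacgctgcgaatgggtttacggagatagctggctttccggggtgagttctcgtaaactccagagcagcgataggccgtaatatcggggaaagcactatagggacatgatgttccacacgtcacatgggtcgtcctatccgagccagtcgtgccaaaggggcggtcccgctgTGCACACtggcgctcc

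Mt2: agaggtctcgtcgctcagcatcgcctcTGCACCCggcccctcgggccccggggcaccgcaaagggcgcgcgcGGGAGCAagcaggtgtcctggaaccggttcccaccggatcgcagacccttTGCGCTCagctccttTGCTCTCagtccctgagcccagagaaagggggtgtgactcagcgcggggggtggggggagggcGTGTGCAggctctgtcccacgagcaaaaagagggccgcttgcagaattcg

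Mt1 had 1 match in this window and Mt2 had 5. The Mt1 window ends at the annotated start, and bases past the ends of both windows were not searched. The counts therefore do not compare whole promoters. At least 1 match occurs in 44.4% of 32851 RefSeq promoters over the 250 bases before the start, so the presence of the letters is common. A match is a description of letters and not a binding site.

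Genes bound by NRF2, the factor that answers oxidative stress, leaned higher. Of 19, 6 were at least 2-fold higher and 1 lower, with a median of 0.86 (0.24 to 1.26). Srxn1 (sulfiredoxin), which repairs oxidised peroxiredoxins, had 243 and 1723 UMIs (3.28, 3.09 to 3.48), and the peroxiredoxin Prdx1 4414 and 10265 (1.67). Pgd, of the pentose phosphate path that supplies NADPH, had 308 and 907 UMIs (2.01, 1.83 to 2.21). Slc7a11, the cystine importer, had 7 and 23 UMIs, those of the control in 2 members (2.10, 0.90 to 3.64). Without members that held at least 5 UMIs of another cell type, it had 0 and 21 UMIs, at least 9.31-fold higher with the control at 3 UMIs. It was seen in 64.4% of control and 57.9% of JPI-289 neutrophil-type barcodes. The iron stores Fth1 (84462 and 118019 UMIs) and Ftl1 (11873 and 17158 UMIs) held the most UMIs, with log2 ratios of 0.94 and 0.99. Hmox1 (269 and 322 UMIs, 0.71) and Nqo1 (295 and 245 UMIs, 0.19, -0.06 to 0.44) were under 2-fold, and Osgin1 was lower (281 and 74 UMIs, -1.46). Of 16 genes of the list with a RefSeq promoter, 4 (G6pdx, Gclm, Prdx1 and Txnrd1) held the letters of the antioxidant response element, TGACNNNGC on either strand, against 10.2% of all promoters.

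Proteasome subunits leaned higher as a group. Of 34 measured, 10 were at least 2-fold higher and none lower, with a median of 0.84 (0.58 to 1.00), against 1.22 in late PT-type barcodes. Psmd2 had 203 and 390 UMIs (1.40) and Psmd6, the lowest, 223 and 172 (0.08, -0.21 to 0.37). The 77 cytosolic ribosomal proteins had a narrower spread, with a median of 0.36 (0.30 to 0.39) and none past 2-fold. Rpl37 (1915 and 2362 UMIs, 0.76) was the highest, and Rpl3 (2162 and 1446 UMIs, -0.12) turned to 0.10 relative to the median of all genes.

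Stress chaperones had no shared direction. Of 12 heat shock genes, 3 were at least 2-fold higher and 3 lower. The share lower was near that of all genes (24.7%), and the share higher lay above it (7.97%). The list median was 0.11 (-1.05 to 1.02), against 1.16 in late PT-type barcodes. Hsp90ab1, an abundant cytosolic chaperone, had 2077 and 4138 UMIs (1.45, 1.37 to 1.53). Hspa1b, an inducible HSP70, had 84 UMIs in 22 control members and 8 in 7 JPI-289 members (-2.86, -4.19 to -1.89). Of 14 measured genes of the integrated stress and unfolded protein responses, 3 were at least 2-fold higher and 1 lower, with a median of 0.19 (-0.48 to 1.60). The factor Atf4 had 165 and 457 UMIs (1.92, 1.67 to 2.19) and Eif4ebp1, a brake on translation, 106 and 543 (2.81, 2.51 to 3.13), while Herpud1 of the endoplasmic reticulum had 733 and 242 (-1.14). Of 16 immediate early genes, which switch on within minutes of stress or handling, 2 were at least 2-fold lower and none higher, with a median of -0.37 (-0.88 to 0.13). Jun had 1623 and 623 UMIs (-0.92) and Jund 1128 and 1261 (0.62).

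JPI-289 acts on PARP, so the genes of PARP and of its substrate NAD were described. Parp1 had 54 UMIs in 42 control members and 26 in 19 JPI-289 members, with a log2 ratio of -0.58 and an interval that spans 0 (-1.33 to 0.10), and a difference in RNA was not detectable at this depth. Of 13 genes in the list, 7 were at least 2-fold lower and none higher, with a median of -1.22 (-3.67 to -0.44). The median was -3.27 with each member thinned to 1000 UMIs and -2.28 with a minimum of 100 UMIs per gene. All of these but Sirt3 serve the making of NAD. Haao of the path from tryptophan had 246 and 10 UMIs (-4.10), Nmrk1, which uses nicotinamide riboside, 271 and 15 (-3.67, -4.58 to -2.97), and Nampt, of nicotinamide salvage, 212 and 66 (-1.22). The Nampt value turned to 0.27 when each member was thinned to 1000 UMIs. Sirt3, a mitochondrial deacylase that uses NAD, also had fewer UMIs, 223 and 19 (-3.06), while Sirt1 had 49 and 42 (0.24, -0.40 to 0.86).

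Of 10 measured inflammation genes, 4 were at least 2-fold lower and 3 higher, with a median of -0.21 (-2.52 to 2.25). That median was 0.22 with each member thinned to 1000 UMIs. Cxcl1, which draws neutrophils, had 641 UMIs in 118 control members and 46 in 21 JPI-289 members (-3.33, -3.81 to -2.91). Cxcl2, a related chemokine, leaned the other way with 50 and 151 (2.04, 1.58 to 2.54), and was not among the genes followed under the alternatives. The list as a whole stood at 814 and 883 CPM in members and at 32794 and 28436 CPM in neutrophil-type barcodes. Cd14, a coreceptor of toll-like receptor 4, had 31 UMIs in 29 control members and 555 in 137 JPI-289 members, 10.5 and 258 CPM (4.60, 4.10 to 5.19). Its log2 ratio was 2.75 when members needed only 1 UMI of each rule gene, and 4.63 without members that held at least 5 UMIs of another cell type. After thinning to 1000 UMIs it was seen in 18.4% of JPI-289 members and 92.0% of JPI-289 neutrophil-type barcodes, and in 0.87% and 95.7% of the same classes in the control library. Il34, a growth factor of macrophages, had 71 and 247 UMIs (2.25, 1.87 to 2.66), and the adhesion receptor Icam1 176 and 22 (-2.52).

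Among genes with at least 50 UMIs over both libraries, the lowest log2 ratios in members were those of Slc38a3, Hnf4aos, Pik3c2g, Nat8f3, G6pc, Slc13a2, Hsd3b3 and Gm12678. Hnf4aos, the antisense gene at Hnf4a, had 98 UMIs in control and 0 in JPI-289 members, at least 23.8-fold lower. Pik3c2g, a lipid kinase, had 88 and 0 (at least 21.4-fold lower) and Nat8f3, an acetyltransferase, 83 and 0 (at least 20.2-fold lower). The steroid enzyme Hsd3b3 had 186 and 1 UMIs. The highest log2 ratios were those of Depp1, Slc6a19os, Retnlg, Mt2, Cd14, Mt1, S100a9 and Runx1. Depp1, a target of FOXO factors, had 3 UMIs in 3 control members and 154 in 63 JPI-289 members (5.92, 4.56 to 8.43), and stood at 5.08 in late PT-type barcodes. Runx1, a transcription factor best known in blood, had 6 and 74 UMIs, those of JPI-289 in 49 members (3.97, 2.89 to 5.57), and 1 and 71 UMIs without members that held at least 5 UMIs of another cell type. Slc6a19os, the antisense gene at Slc6a19, had 2 and 74 (5.35), whereas Slc6a19 itself stood at -1.19. Antisense genes share reads with their partners where a count does not use strand. Retnlg and S100a9 are neutrophil genes, and S100a9 (10 and 125 UMIs, 4.03) was 1.29 without members that held at least 5 UMIs of another cell type. Without those members Retnlg had 6 and 3 UMIs, too few to be measured, so its higher value rests on them. When members needed only 1 UMI of each rule gene, the log2 ratio was 4.31 for Depp1, 4.07 for Slc6a19os, 3.25 for Runx1, 1.82 for S100a9 and 0.51 for Retnlg.

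**Figure D5:**
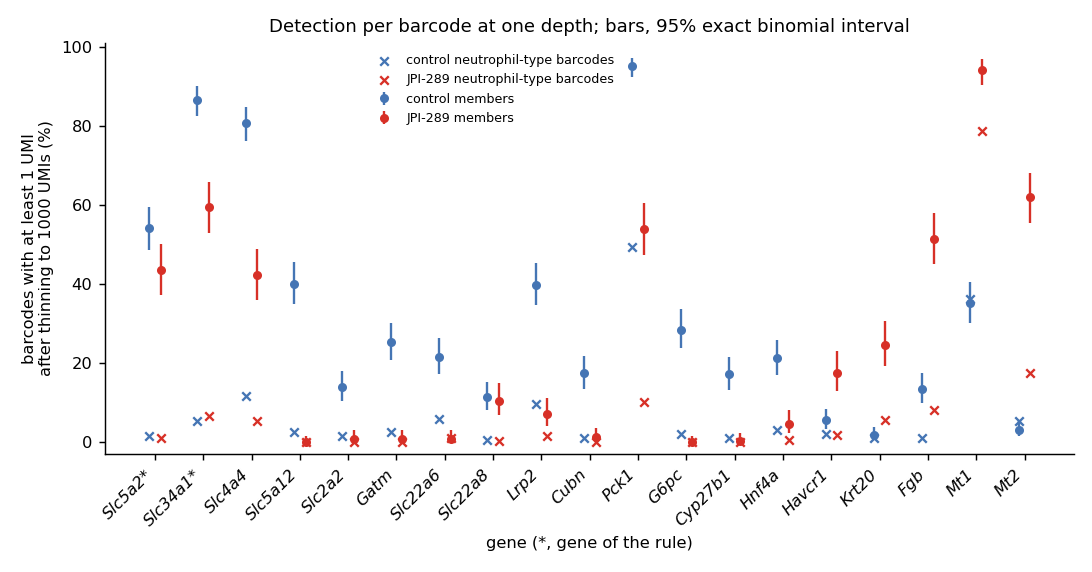
Share of members with at least 1 UMI after every barcode was thinned to 1000 UMIs (circles, with 95% exact binomial intervals over barcodes of 1 library) and of neutrophil-type barcodes (crosses), in the control (blue) and JPI-289 (red) library. Slc5a12 goes from 40.1% to 0% and Krt20 from 1.74% to 24.7%, while control Mt1 (35.2%) lies at the level of neutrophil-type barcodes (36.2%).

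Depth was evened out by drawing 1000 UMIs from every barcode, which left out none of the members. Slc5a12 was then seen in 40.1% of control members (34.9 to 45.5) and in none of 239 JPI-289 members (0%, upper limit 1.53%), against 84.6% and 5.44% before thinning. In neutrophil-type barcodes, whose median depth was 2149 UMIs for the control and 2241 for JPI-289, it was seen in 2.66% and 0.17%. G6pc was seen in 28.5% and 0% of members, Slc2a2 in 14.0% and 0.84%, Cubn in 17.4% and 1.26% and Cyp27b1 in 17.2% and 0.42% (before thinning 64.5% and 1.26%, 59.0% and 2.93%, 66.0% and 6.28%, and 44.5% and 2.93%). In JPI-289 members these genes were therefore at or near the level of neutrophil-type barcodes, which had 0.17% for G6pc, 0% for Slc2a2, 0.17% for Cubn and 0.17% for Cyp27b1. Lrp2 was still seen in 7.11% of JPI-289 members (4.20 to 11.1), against 39.8% of control members and 1.71% of JPI-289 neutrophil-type barcodes, and Slc4a4 in 42.3% against 80.8% and 5.31%. Slc22a8 was seen in 11.3% and 10.5% of members.

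Havcr1 was seen in 5.52% of thinned control members (3.36 to 8.49) and 17.6% of JPI-289 members (13.0 to 23.0), with 2.13% and 1.88% of neutrophil-type barcodes. Krt20 was seen in 1.74% and 24.7% of members, and Fgb in 13.4% and 51.5%, with 1.06% and 8.05% of neutrophil-type barcodes for Fgb. Mt2 was seen in 3.20% and 61.9% of members and 5.32% and 17.5% of neutrophil-type barcodes. Mt1 was seen in 35.2% of control members, against 36.2% of neutrophil-type and 16.3% of late PT-type barcodes, and in 94.1% of JPI-289 members against 78.8% of neutrophil-type barcodes.

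Members with and without Havcr1 were also set side by side. At 1000 UMIs in the JPI-289 library, the 42 members with a UMI of Havcr1 and the 197 without had 10881 and 11228 CPM of Mt1, 6690 and 5091 of Plin2, and 1857 and 1640 of Fgb. A member without a UMI at this depth can still hold Havcr1, since only 103 of the 239 were at 0 before thinning. In the control library the 19 members with a UMI of Havcr1 had 368 CPM of Slc5a12, from 7 UMIs, and the 325 without had 843. Slc4a4 stood at 1947 and 2018 CPM in the same sets.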

How the data were processed

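The authors made the libraries with the Chromium Next GEM 5′ kit v2, aligned the reads to mm10 with Cell Ranger 5.0.1, and deposited the counts of UMIs in every barcode, gene by gene, as they came and before any cell calling. Each of the 2 tables lists 32285 genes and 737280 barcodes, with 38328760 UMIs for the control and 35548396 for JPI-289. Whether the counts used strand is not given in the sources used here.

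Members were taken by the rule in the report, with no further cell calling, clustering, doublet calling or batch correction, so doublets remain. The rule and all gene lists were chosen with earlier results of these data known, and are not independent evidence. Rows that share a symbol were summed. UMIs were summed over members per library, divided by their total, and compared as log2 ratios after adding 0.5 UMIs, for genes with at least 20 UMIs over both libraries. The study's own test over cells was not used, since cells are not replicates. Intervals are 95% exact binomial ones (Clopper-Pearson), for medians those from the order of at least 6 genes, and for differences between classes of barcodes a normal approximation on 4 counts. Rule genes were left out of list medians. A gene at 0 was put at 3 UMIs over the group for a bound.

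Named genes were, per list, the 2 with most UMIs and the highest and lowest log2 ratio among those with at least 50 UMIs, the 8 highest and 8 lowest of all, and a fixed list led by Slc5a12, Lrp2, Hnf4a, Havcr1 and Mt1. Other genes of the lists named in the text were chosen after their values were seen. Some genes of the lists count in the list values but are not reported here by name. Free RNA was profiled from barcodes under 100 UMIs. G0s2 was left out of the neutrophil list where barcodes with RNA of another cell type, or the share of free RNA, were sought, since control members held it, a choice made after seeing the data. Coordinates are those of the GENCODE annotation of GRCm38, and promoters those of RefSeq (GRCm38.p6), in which Slc5a2 and Slc5a12 were not found. Amino acid sequences were not used. The interval steps were tested on simulated data. Python 3.11.15, numpy 2.4.6, scipy 1.17.1, pandas 2.3.3 and matplotlib 3.10.9 were used. The alternatives changed the rule, depth, mt- limit, total, weighting, gene minimum, added count, free RNA and doublets. Leaving out members under 2% mt- UMIs and leaving mt-, ribosomal RNA, Malat1 and Neat1 UMIs out of the total were added after seeing the data.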

Additional observations from a re-analysis of the deposited data

Results flagged for a closer look

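Among the genes of the lists and the named genes, 4 stood out because they differed between the libraries by at least 2-fold with opposite signs in members and late PT-type barcodes, with both counting intervals off 0. Spp1, described above, also had opposite signs but was just under 2-fold in members. With 1 library per condition none of these differences was tested.

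Hspa1b, an inducible HSP70 chaperone, had a log2 ratio of -2.8577 in members, from 84 and 8 UMIs, and 2.3853 (0.64 to 5.81) in late PT-type barcodes, from 2 and 21 UMIs. The 84 control UMIs came from 22 of 344 members. The difference between the classes was -5.24 (-7.39 to -3.10). Vim had a log2 ratio of 3.0449 in members and -1.1171 (-1.66 to -0.58) in late PT-type barcodes, from 70 and 53 UMIs, a difference of 4.16 (3.39 to 4.93). S100a6, a calcium-binding protein of the tubule injury list, had 1.5981 in members, from 214 UMIs in 55 control members and 473 in 34 JPI-289 members, and -1.9521 in late PT-type barcodes, from 499 and 212 UMIs, a difference of 3.55 (3.22 to 3.88). Hbb-bt, a haemoglobin chain of red blood cells, had -1.3703 in members, from 19 and 5 UMIs, and 2.0114 in late PT-type barcodes, from 5 and 36 UMIs. The stroma list summed to 327 CPM in control and 0.79 CPM in JPI-289 late PT-type barcodes, against 3.73 and 1.40 CPM in members. Whether stromal RNA bears on the Vim and S100a6 values of late PT-type barcodes was not tested.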

How the results depend on the processing

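Depth limits genes near 20 UMIs and any gene absent from JPI-289 members, and no alternative can stand in for a second mouse. No paired analysis was possible because each condition has 1 library and no test was made. Over 18 alternatives, the counts of genes past 2-fold stayed within 1.5 times the reported count in 31 of 36 comparisons, and list medians stayed within their interval in 364 of 378. Of 107 named genes that were measured, each with a value under 16 to 18 of them, 97 showed no change of sign that turned a ratio whose interval lay off 0. The causes of the changes below were not tested, except that a higher minimum or thinning leaves fewer genes.

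Genes at least 2-fold higher numbered 1217 when centred (relative to the median of all genes), 491 with each member thinned to 1000 UMIs (3977 genes measured) and 447 with a minimum of 100 UMIs per gene (5474 genes measured), against 778. Genes at least 2-fold lower numbered 1081 after thinning and 1079 with that minimum, against 2411. The median of ribosomal proteins (0.36) was 0.2494 with at least 1 UMI of both rule genes, 0.4208 with at least 3, 0.4020 with at most 20% mt- UMIs, 0.5894 after centring, 0.6140 with equal weight of each member, 0.6030 after thinning, 0.4074 without the 5% of members with most UMIs and 0.2468 without members under 2% mt- UMIs. The median of nuclear respiratory genes (-0.33) was -0.1070 after centring, -0.0892 after thinning, -0.0453 with equal weight and -0.4657 without members under 2% mt- UMIs. That of the proteasome (0.84) was 1.0630 after centring, and that of glycolysis (-0.26) was 0.1964 after thinning.

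Signs turned for Hspa5 (-0.1338) and mt-Co1 (0.0179) with at most 20% mt- UMIs, for Abcg2 with late PT genes at 0 (0.0293), and for mt-Co1 (0.0720), Gapdh (0.0261), Abcg2 (0.0800) and Rpl3 (0.1027) after centring. After thinning they turned for mt-Co1 (0.1435), Rpl3 (0.1813), Pax8 (-0.4887), Nampt (0.2739), Gapdh (0.1286), Atp5g3 (0.0419) and Abcg2 (0.0001), and with equal weight for Rpl3 (0.1624), Pax8 (-0.1063), Gapdh (0.1427), B2m (0.0093), Atp5g3 (0.0236) and mt-Co1 (0.1434). Lcn2 was -1.7730 with free RNA subtracted and -0.6442 without members that held at least 5 UMIs of another cell type.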
